A study of Neurospora crassa with 20 samples.

Results

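The clock gene frq (NCU02265) and the photoreceptor gene vvd (NCU03967) of Neurospora crassa were examined with 20 kb of chromosome on either side, as 2 named members of the 10397 genes that the annotation places on the 7 chromosomes. Both were chosen by name, not by a measured value, but with earlier results of these data known. In the NC12 build frq occupies chromosome VII from 3131640 to 3136464 (4825 bp) and vvd chromosome VI from 2268533 to 2271812 (3280 bp). Histone H3 lysine 9 tri-methylation (H3K9me3) and histone H3 lysine 4 tri-methylation (H3K4me3) were measured by ChIP-seq, in which crosslinked chromatin carrying a mark is recovered with an antibody and its DNA sequenced. Mycelia came from Δkmt2/Δset-1 (H3K9me3), Δkmt1/Δdim-5 (H3K4me3) and WT (both marks), each harvested after 24 h in the dark followed by 30 min of light (LP30) or after the 24 h in the dark alone (DD). Each of these conditions had 2 biological replicates, which the authors pooled into 1 peak list, so 8 lists, 4 for each mark, were available. Control ChIPs, also with 2 replicates each, came from Δkmt1/Δdim-5 DD (H3K9me3) and Δkmt2/Δset-1 DD (H3K4me3). No spread between replicates could be derived from pooled lists, and no test between conditions was made.

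The frq gene encodes FREQUENCY, the negative element of the circadian oscillator, which with its partner helicase FRH represses its own activator, the White Collar Complex of WC-1 and WC-2. WC-1 is also the main blue-light receptor, and light rapidly induces frq and vvd through the same complex. VVD (VIVID) is a small flavin-binding photoreceptor that is made after light and damps the White Collar Complex, the basis of photoadaptation. KMT2/SET-1 is the methyltransferase of H3K4, a mark usually found at the starts of active genes, and KMT1/DIM-5 is that of H3K9, the mark of heterochromatin, on which DNA methylation in Neurospora depends.

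Each peak carries a fold enrichment, the ratio of the ChIP to a control ChIP from a strain without the mark (Δkmt1/Δdim-5 DD for H3K9me3, Δkmt2/Δset-1 DD for H3K4me3). Both controls were from the dark, so the LP30 lists were also called against a DD control. Each peak also carries a p and a q, which is the p adjusted for the number of positions tested. For the broad H3K9me3 peaks the fold, p and q are averages over the peak. For the narrow H3K4me3 peaks they are values at the summit, the base of highest signal. Lists were called at a permissive p under 0.1, and 41.4% to 47.9% of the H3K9me3 peaks and 90.2% to 94% of the H3K4me3 peaks on the chromosomes had a q under 0.01. The deleted genes behaved as the strain labels say for H3K4me3. No peak lay over dim-5 in either Δkmt1/Δdim-5 list, against summits of 1.5-fold (LP30) and 1.61-fold (DD) in WT, and set-1, which the control strain lacks, stood at 5.10-fold to 5.24-fold in the 4 lists.

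Around both genes together, the 4 H3K9me3 lists held 6 peaks, 1 at frq and 5 at vvd, none of them with a q under 0.01. The 4 H3K4me3 lists held 74 peaks there, 38 at frq and 36 at vvd, and 65 of them had a q under 0.01. Most of that H3K4me3 belonged to neighbouring genes. Peaks over the bodies of frq and vvd themselves numbered 9 for H3K4me3, 4 of them with a q under 0.01, and 1 for H3K9me3.

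H3K9me3 at frq was found in 1 list of the 4. Neither the LP30 nor the DD list of Δkmt2/Δset-1 had an H3K9me3 peak over frq or within 20 kb of it. The WT LP30 list had a peak from 3128822 to 3130873, 2052 bp long, with a mean fold enrichment of 1.17 and a q of 0.0866, and the WT DD list again had none. The WT LP30 peak did not touch the gene: it ended 766 bp below the lower-coordinate end, inside a stretch of 7.38 kb without an annotated gene that separates frq from NCU02267. The annotation used here gives no strand and holds neither frq-mini, a small upstream transcript, nor qrf, an antisense transcript, which the authors describe at frq. They placed WT H3K9me3 mainly within frq-mini and saw H3K4me3 near the start of qrf. Peaks were not set against these transcripts here.

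The frq peak was of middling strength in its list and far from other H3K9me3. Of the 687 peaks of the WT LP30 list on the chromosomes, 48.8% had a lower fold enrichment and 48.9% were shorter. Its nearest neighbour in the same list was 121 kb away, whereas the median peak of that list had another within 5 kb, and 21 peaks (3.06%) were as far from the next. In the lists without it, the nearest H3K9me3 to frq lay 199 kb or more below the gene and 116 kb above it. A peak over the body or within 1 kb of it in WT LP30 alone of the 4 lists was seen at 28 of 10397 genes (0.269%). For single contrasts, 0.596% of genes had such a peak in WT LP30 and none in WT DD, and 0.885% had one in WT LP30 and none in Δkmt2/Δset-1 LP30.

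**Figure D1:**
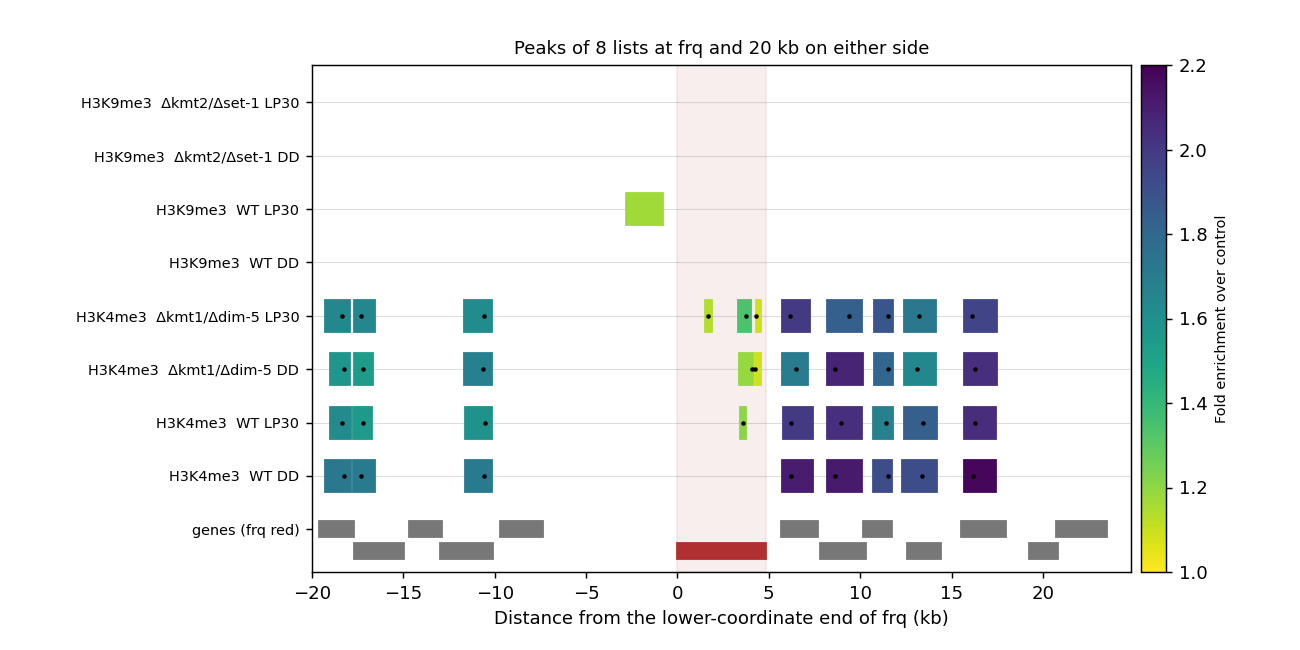
Peaks of the 8 lists at frq, by distance from the lower-coordinate end of the gene in kb; boxes are peaks coloured by fold enrichment over the control, dots are H3K4me3 summits, and the bottom row shows annotated genes with frq in red. The only H3K9me3 peak is that of WT LP30 below the gene, and H3K4me3 boxes inside frq (1.09-fold to 1.34-fold) are paler and shorter than those over its neighbours.

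At vvd the H3K9me3 peaks were shorter than the one beside frq. The WT LP30 list had no peak over vvd or within 20 kb of it, and its nearest peaks were 182 kb below and 113 kb above. In WT DD a peak of 321 bp, from 2268679 to 2268999, lay inside the gene near its lower-coordinate end and covered 9.79% of the body, with a fold enrichment of 1.11 and a q of 0.393. WT DD thus held a peak over vvd that WT LP30 did not, a state shared by 114 of 10397 genes (1.1%). The peak was among the weakest and shortest of its list, with 15.9% of the 678 peaks lower in fold and 4.13% shorter, and its nearest neighbour was 115 kb away.

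In Δkmt2/Δset-1 no H3K9me3 peak overlapped vvd in LP30 or in DD. The authors, by contrast, describe H3K9me3 at vvd as not affected in this strain. The difference between the DD lists rests on the 1 WT DD peak with a q of 0.393. Whether the strains differed in H3K9me3 at vvd was not tested. Genes with a peak over the body in WT DD and none in Δkmt2/Δset-1 DD numbered 92 (0.885%). Genes with an H3K9me3 peak over the body in WT DD and in none of the other 3 lists, as at vvd, numbered 41 (0.394%). The Δkmt2/Δset-1 LP30 list had 1 peak in the 20 kb above the gene, from 2280241 to 2280618 (378 bp, 1.12-fold, q 0.246). The Δkmt2/Δset-1 DD list had 3 there, against none in the same stretch in WT DD. The nearest of them began 488 bp beyond the gene, from 2272301 to 2272664 (364 bp, 1.15-fold, q 0.0779).

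The next, from 2275506 to 2277094 (1589 bp, 1.13-fold, q 0.229), covered 71.2% of the neighbouring gene NCU03968. The third, from 2280387 to 2281931 (1545 bp, 1.14-fold, q 0.118), overlapped the single peak of Δkmt2/Δset-1 LP30 and no gene. Together the 3 covered 17.5% of the 20 kb above vvd, and that list covered 19.2% of all chromosome sequence. WT DD covered 0% of the same 20 kb and 17.7% of all chromosome sequence. The authors found H3K9me3 enriched at centromeres and constitutive heterochromatin. The shares of all sequence therefore do not show what is usual near a gene. A peak over the body in Δkmt2/Δset-1 DD and none in WT DD, as at NCU03968, was found at 403 of 10397 genes (3.88%).

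**Figure D2:**
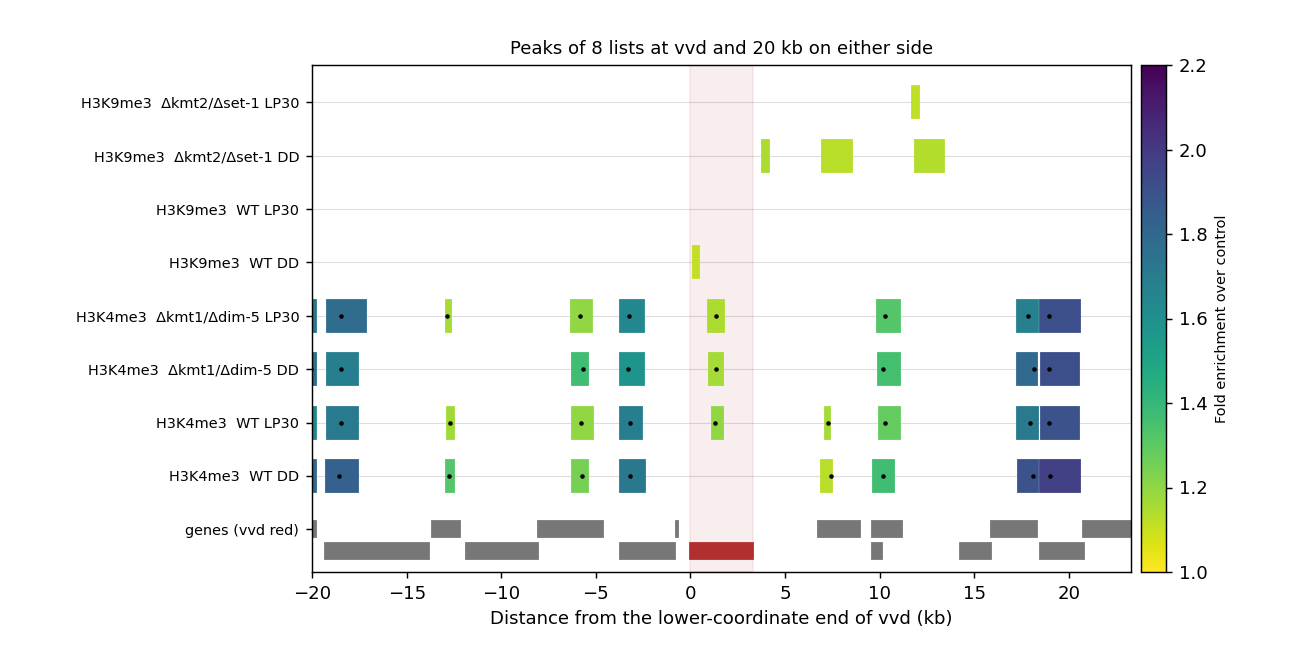
Peaks of the 8 lists at vvd, by distance from the lower-coordinate end of the gene in kb, drawn with the same colour scale of fold enrichment, summit dots and gene row. The small WT DD H3K9me3 peak lies at the low end of the gene, the Δkmt2/Δset-1 H3K9me3 peaks lie above it, and the H3K4me3 peak in the gene is present in 3 of the 4 lists.

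H3K4me3 over the body of frq was called in both Δkmt1/Δdim-5 lists and in WT LP30, but not in WT DD. The Δkmt1/Δdim-5 LP30 list had 3 peaks in the gene, at 3133135 to 3133543 (409 bp, 1.14-fold, q 0.0851), 3134982 to 3135687 (706 bp, 1.34-fold, q 1.64e-06) and 3135943 to 3136195 (253 bp, 1.09-fold, q 0.488). The Δkmt1/Δdim-5 DD list had 2, at 3134993 to 3135776 (784 bp, 1.19-fold, q 0.00714) and 3135865 to 3136236 (372 bp, 1.09-fold, q 0.424). WT LP30 had 1 peak, at 3135046 to 3135370 (325 bp, 1.21-fold, q 0.00613). The strongest peaks of these lists overlapped, with summits 1098 bp (Δkmt1/Δdim-5 LP30), 767 bp (Δkmt1/Δdim-5 DD) and 1251 bp (WT LP30) inside the higher-coordinate end. The Δkmt1/Δdim-5 DD summit, at 3135697, lay just outside the strongest Δkmt1/Δdim-5 LP30 peak and outside the WT LP30 peak.

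The share of the frq body under an H3K4me3 peak was 28.4% in Δkmt1/Δdim-5 LP30, 24% in Δkmt1/Δdim-5 DD, 6.74% in WT LP30 and 0% in WT DD. All these peaks were weak for their lists. Of all peaks, 21.3% had a lower fold than the strongest frq peak in Δkmt1/Δdim-5 LP30, 8.36% in the DD list of that strain and 8.16% in WT LP30. In WT LP30, where frq had both marks, they did not overlap: 4.17 kb separated the H3K9me3 peak below the gene from the H3K4me3 peak inside it. From that WT LP30 H3K9me3 peak to all the H3K4me3 peaks in the body, in any list, the gap was 2.26 kb to 5.07 kb. Both ends of this range came from Δkmt1/Δdim-5 LP30 peaks (q 0.0851 and 0.488). They are thus distances between marks of different strains.

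At vvd the same 3 lists had an H3K4me3 peak in the gene, 1 each, and WT DD again had none. The peak was 825 bp long in Δkmt1/Δdim-5 LP30, at 2269459 to 2270283 (1.15-fold, q 0.033). It was 786 bp long in Δkmt1/Δdim-5 DD, at 2269486 to 2270271 (1.16-fold, q 0.02). In WT LP30 it was 586 bp long, at 2269669 to 2270254 (1.2-fold, q 0.00293). The 3 peaks coincided, with summits 1349, 1366 and 1296 bp from the lower-coordinate end in Δkmt1/Δdim-5 LP30, Δkmt1/Δdim-5 DD and WT LP30. They covered 25.2% of the body in Δkmt1/Δdim-5 LP30, 24% in the DD list of that strain and 17.9% in WT LP30. The H3K9me3 peak of WT DD lay outside this stretch, nearer the lower-coordinate end.

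An H3K4me3 peak over the body in WT LP30 and none in WT DD, as at both frq and vvd, was seen at 90 of 10397 genes (0.866%), and the opposite state at 87 (0.837%). A peak in Δkmt1/Δdim-5 DD and none in WT DD, again as at both, was seen at 269 genes (2.59%). A peak in every list but WT DD was seen at 42 genes (0.404%), frq and vvd included. Without KMT1/DIM-5 both genes had a peak with and without light, as did most genes with a peak in that strain. Peaks overlapped 45.2% of all genes in its LP30 list and 44.6% in its DD list. Only 1.37% of genes had one in that strain in LP30 and not in DD, and 0.75% in DD and not in LP30.

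The pileup, the number of extended reads stacked over the summit, can be solved from the deposited fold enrichment and p. WT DD had no peak in frq or vvd, so its pileup there is unknown. The WT LP30 pileup was therefore set only against the lowest DD pileup that would have reached the p of the list. At the frq summit WT LP30 had a ChIP pileup of 286 reads over a control of 237. With the control scaled to the depth of WT DD (223 reads), a DD pileup of 242 reads, or 1.09-fold, would have reached the p of the list. With the ChIP scaled by the same factor as the control (0.942), the LP30 pileup comes to 269 reads (95% exact Poisson interval 239 to 303). The needed DD value is 10.2% below it and lies within this interval. ChIP pileups of matched peaks did not follow that factor, with a median WT LP30 over WT DD ratio of 1.01. Unscaled, the 286 reads have an interval of 254 to 321, and the needed 242 reads lie outside it. For frq, whether the needed value lay within the counting error of the LP30 pileup thus depended on the scaling. The difference between the LP30 pileup and the actual DD pileup is unknown.

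At the vvd summit WT LP30 had 345 ChIP reads over a control of 287. The pileup needed in WT DD was 291 reads, or 1.08-fold. The LP30 pileup was 325 reads scaled in the same way (interval 292 to 361) and 345 unscaled (310 to 383). The needed value was 10.5% below the scaled level and lay 1 read outside the scaled interval, which does not set vvd apart from frq. These intervals cover the counting error of the LP30 pileup only, not that of the DD pileup or the spread between cultures, and a summit is by construction the highest point of its peak. They also treat pileups as Poisson counts, although those of WT LP30 ended at 431 reads (below). Whether pileups below such a limit spread as Poisson counts was not tested.

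Where both lists had a peak, the sizes could be compared directly, as the ratio of summit folds divided by the median ratio of all peaks matched between the 2 lists (the centred ratio). For the strongest frq peak the centred ratio of Δkmt1/Δdim-5 LP30 to WT LP30 was 1.11. The ratio of ChIP pileups, centred in the same way, was 1.12 (interval 0.949 to 1.31). For vvd the centred ratio was 0.960, with a centred pileup ratio of 0.937 (0.803 to 1.09). Both intervals include 1, and both again treat pileups as Poisson counts. Ratios past 1.2 were seen for 3.25% of the 4245 matched peaks in the higher direction and 7.09% in the lower, and neither gene was among them.

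Between Δkmt1/Δdim-5 LP30 and Δkmt1/Δdim-5 DD the centred ratio was 1.1 for the strongest frq peak, whose ChIP pileups were 323 reads in LP30 and 324 in DD, and 0.979 for the frq peak nearest the higher-coordinate end. For vvd it was 0.972, from 327 reads in LP30 and 334 in DD. Past 1.2 were 2.38% of 4536 matched peaks in the higher and 4.45% in the lower direction, again with neither gene among them. The frq ratio of 1.1 thus came with nearly equal ChIP pileups and with control values of 241 reads in LP30 and 272 in DD, at summits 331 bp apart. No ratio could be formed against WT DD, in which both bodies lacked a peak.

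The H3K4me3 peaks in frq stood below those around it. In each H3K4me3 list 8 peaks lay in the flanks of frq, all with a q under 0.01. Their fold enrichment ran over 1.62 to 2.00 (median 1.78) in Δkmt1/Δdim-5 LP30, 1.54 to 2.08 (1.69) in Δkmt1/Δdim-5 DD, 1.55 to 2.05 (1.76) in WT LP30 and 1.71 to 2.18 (1.92) in WT DD. No flank peak of frq in any list was as low as the strongest peak in the gene. The flank peaks were 1041 to 1957 bp long, against 253 to 784 bp in the gene.

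Of the 12 other genes around frq, 8 had a summit in all 4 lists and 4 (NCU02269, NCU02267, NCU02259 and NCU02258) in none. The 3 genes with peaks on the low side were alike. NCU02271 stood at 1.64 (LP30) and 1.57 (DD) in Δkmt1/Δdim-5, against 1.63 (LP30) and 1.72 (DD) in WT, NCU02270 at 1.65 (LP30) and 1.54 (DD) in the mutant, against 1.55 (LP30) and 1.71 (DD) in WT, and NCU02268 at 1.62 (LP30) and 1.68 (DD) in the mutant, against 1.59 (LP30) and 1.71 (DD) in WT. On the high side, the next gene above frq, NCU02264, only 0.87 kb away, stood at 2.00 (LP30) and 1.70 (DD) in the mutant, against 2.00 (LP30) and 2.11 (DD) in WT. The rpt-3 gene, for an ATPase subunit of the proteasome, stood at 1.96 (LP30) and 2.04 (DD) in the mutant, against 2.05 (LP30) and 2.18 (DD) in WT. NCU02263 lay over 1.84 to 2.12, NCU02262 over 1.68 to 1.92 and NCU02261 over 1.64 to 1.92 in the 4 lists. All 8 had their highest fold in WT DD, the list in which frq had no peak and whose median over all peaks, 1.73, was also the highest of the 4.

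Around vvd the picture was more mixed. Δkmt1/Δdim-5 had 8 (LP30) and 7 (DD) flank peaks and each WT list 9, with median folds of 1.66 (LP30) and 1.69 (DD) in Δkmt1/Δdim-5, against 1.64 (LP30) and 1.72 (DD) in WT. The peak in vvd was below every flank peak in both Δkmt1/Δdim-5 lists, but in WT LP30 3 of the 9 flank peaks were lower than its 1.2. Of the 14 other genes, 7 had a summit in all 4 lists, 2 in some and 5 in none.

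The gene next to vvd on the low side apart from a tRNA gene, NCU03966, stood at 1.64 (LP30) and 1.58 (DD) in Δkmt1/Δdim-5, against 1.69 (LP30) and 1.72 (DD) in WT. The rpn-7 gene, for a regulatory subunit of the proteasome, was the highest, over 1.90 to 1.97 in the 4 lists. Genes near the level of vvd were NCU03965, over 1.2 to 1.37 in the 4 lists, and nic-7, named for a nicotinic acid requirement. The nic-7 gene had 1.16 in Δkmt1/Δdim-5 LP30, 1.17 in WT LP30 and 1.32 in WT DD and no peak in Δkmt1/Δdim-5 DD. NCU17113 was also weak but above vvd, over 1.29 to 1.37 in the 4 lists. NCU03968, the next gene on the high side, had a summit in the WT lists only, at 1.16 in LP30 and 1.13 in DD. This is the gene that the H3K9me3 of Δkmt2/Δset-1 DD covered. Among these weak neighbours none shared the state of vvd, since each had a peak in WT DD.

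**Figure D3:**
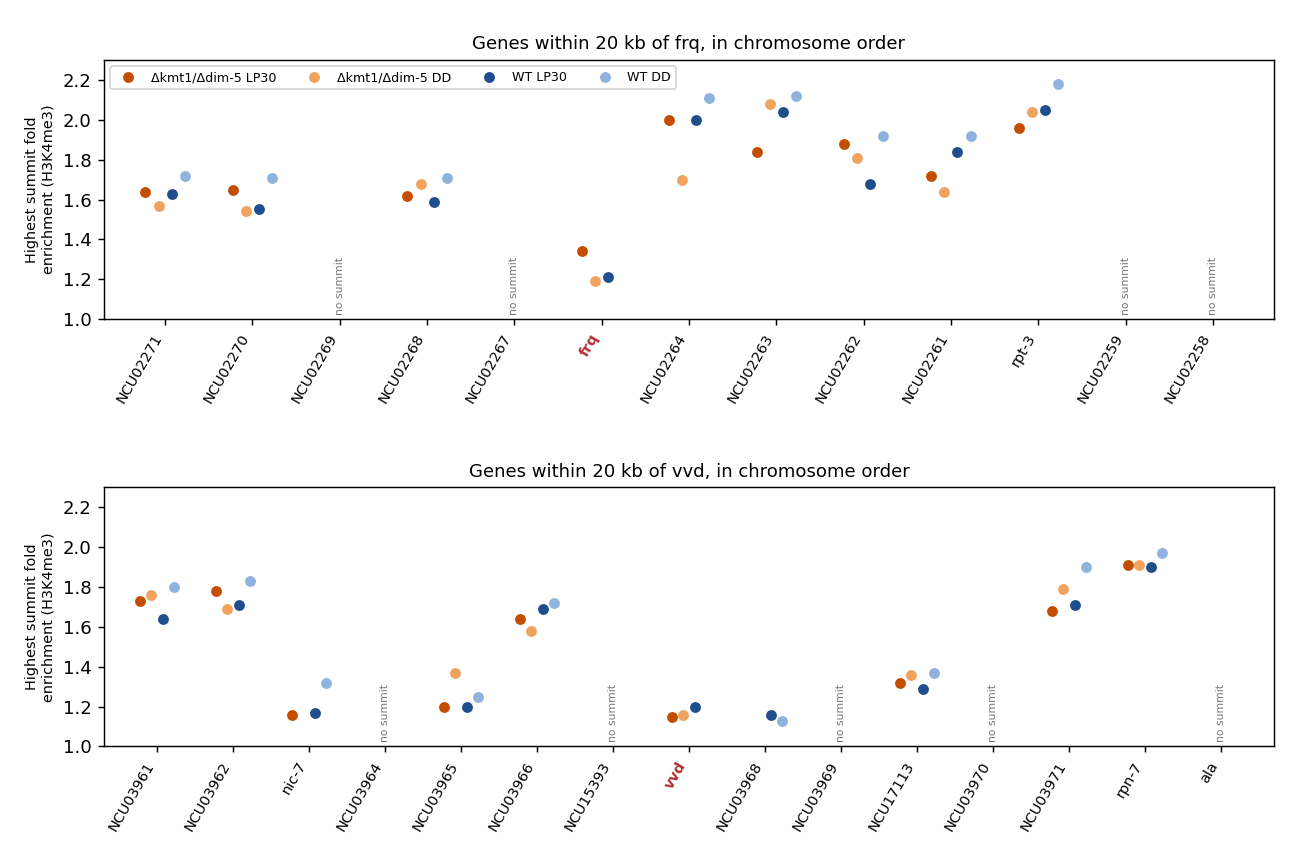
Highest H3K4me3 summit fold enrichment in each gene within 20 kb of frq (top) and vvd (bottom), in chromosome order, 1 dot per list (Δkmt1/Δdim-5 LP30, Δkmt1/Δdim-5 DD, WT LP30, WT DD from left to right within a gene). The dots of frq (1.19 to 1.34) lie below all those of its neighbours, those of vvd (1.15 to 1.2) lie near nic-7, NCU03965 and NCU03968, and neither member has a WT DD dot.

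The flank peaks differed little between lists once centred. Between WT LP30 and WT DD the 8 frq flank peaks had centred ratios of 0.921 to 1.01 and the 9 of vvd 0.933 to 1.07, and over all 4359 matched peaks 2.87% were past 1.2 in the higher and 3.9% in the lower direction. Between Δkmt1/Δdim-5 DD and WT DD the ratios ran over 0.861 to 1.05 at frq and 0.984 to 1.17 at vvd, beside 3.39% and 5.92% of 4243. Between Δkmt1/Δdim-5 LP30 and WT LP30 they ran over 0.9 to 1.12 at frq and 0.971 to 1.06 at vvd. No flank peak around either gene passed 1.2 in any of the 4 contrasts.

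The pileups showed that strong peaks had little room to differ. In the 4 lists the highest ChIP pileup at any summit was 435 (Δkmt1/Δdim-5 LP30), 441 (Δkmt1/Δdim-5 DD), 431 (WT LP30) and 429 reads (WT DD), while the medians were already 405, 406, 402 and 400 reads, and 58.8% to 65% of peaks were within 10% of the highest. All 8 flank peaks of frq were in this range in every list, as were 4 or 5 of those of vvd. Their folds therefore followed the control more than the ChIP: at the frq flanks in WT DD the ChIP pileup varied over 405 to 425 reads while the control varied over 190 to 239. The peaks in frq and vvd were below this level, at no more than 74.3% and 80% of the highest pileup of their list.

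**Figure D4:**
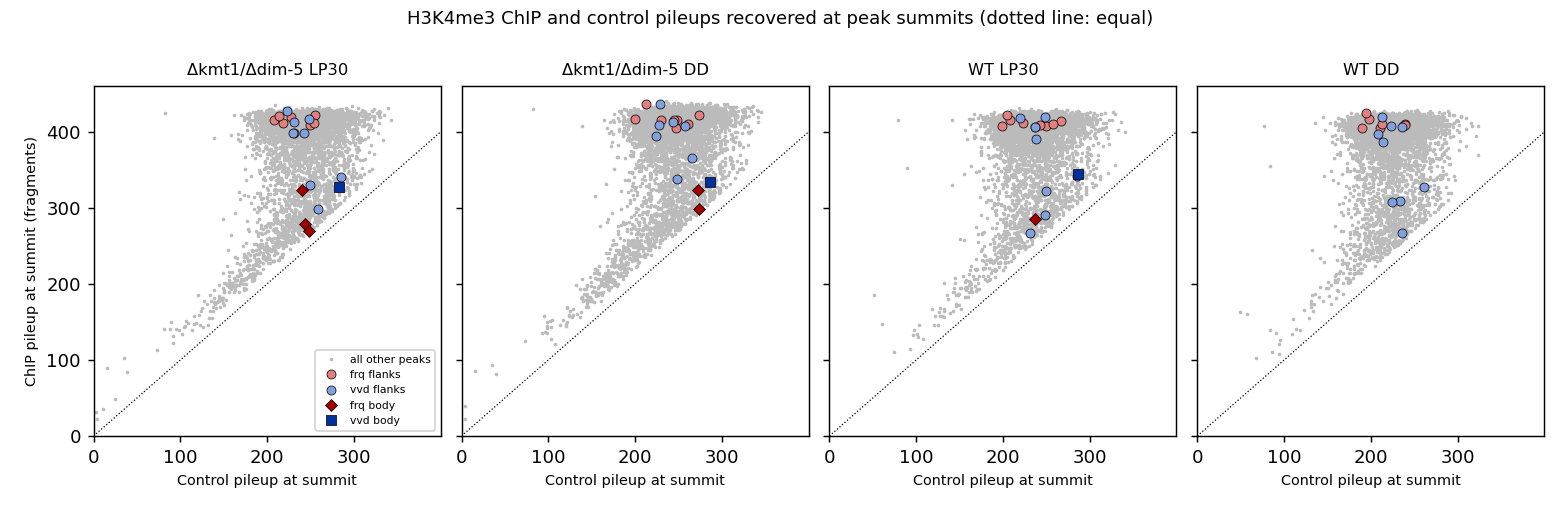
ChIP pileup against control pileup at every H3K4me3 summit of the 4 lists, both in reads stacked over the base, with peaks in and around frq and vvd picked out; the dotted line marks equal pileups. The cloud ends at 429 to 441 ChIP reads, the flank peaks of frq sit under that edge, and the peaks inside frq and vvd (269 to 345 reads) sit nearer the dotted line, with none in WT DD.

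To place the 2 genes among others of the clock and the light response, a list of 27 genes was read in the same way. An H3K4me3 peak overlapped 18 of the 27 in Δkmt1/Δdim-5 LP30 (66.7%), 18 in Δkmt1/Δdim-5 DD (66.7%), 19 in WT LP30 (70.4%) and 18 in WT DD (66.7%), where those lists overlapped 45.2%, 44.6%, 43.6% and 43.5% of all genes, in the same order. These counts take in set-1, which is deleted in the strain used as the H3K4me3 control, in all 4 lists, and dim-5, which is deleted in Δkmt1/Δdim-5, in the WT lists alone. The other components of the oscillator had peaks in every list. The activator gene wc-1 stood at 1.47 (LP30) and 1.42 (DD) in Δkmt1/Δdim-5, against 1.41 (LP30) and 1.45 (DD) in WT. Its partner wc-2 lay over 1.56 to 1.96 in the 4 lists, and frh, for the helicase partner of FRQ, over 1.64 to 1.83. Each of these was above frq in the lists where frq had a peak. The fwd-1 gene, for the F-box protein that targets FRQ for degradation, lay over 1.53 to 1.86.

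The state of frq and vvd, a peak in every list but WT DD, was found at 1 of the 27 (0.404% of all genes). This was csp-1, an early light-induced repressor, with 1.30 (LP30) and 1.23 (DD) in Δkmt1/Δdim-5, and 1.30 in WT LP30. The other light-induced transcription factor genes, sub-1 (1.48 to 1.58) and adv-1 (2.04 to 2.17), had peaks in all 4 lists. A peak in WT LP30 and none in WT DD was found at 2 of the 27 (0.866% of all genes), csp-1 and al-1, the phytoene desaturase gene of carotenoid synthesis, which had 1.24 in WT LP30 and no peak in the other lists. The opposite was found at 1 (0.837% of all genes), the opsin gene nop-1, with 1.17 in WT DD only. Of other photoreceptor genes, cry, the cryptochrome gene, had 1.13 in Δkmt1/Δdim-5 LP30, 1.15 in Δkmt1/Δdim-5 DD and no peak in WT. Of all genes, 2.99% had a peak in Δkmt1/Δdim-5 LP30 and none in WT LP30. For the DD lists of the same strains this share was 2.59%. The phytochrome genes phy-1 and phy-2 had no peak in any list.

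H3K9me3 peaks overlapped 2 of the 27 in Δkmt2/Δset-1 LP30, 2 in Δkmt2/Δset-1 DD, 4 in WT LP30 and 2 in WT DD, beside 7.31%, 7.65%, 4.07% and 4.66% of all genes in the same order. In each list 1 of these was dim-5, which is deleted in the strain used as the H3K9me3 control. In WT LP30 the others were nop-1, al-3, a carotenoid synthesis gene, and ckb-1, a casein kinase II subunit gene. Unlike frq, al-3 and ckb-1 had H3K9me3 within 1 kb of the gene in all 4 lists, and no gene of the list had H3K9me3 in WT LP30 alone when that 1 kb was counted.

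**Figure D5:**
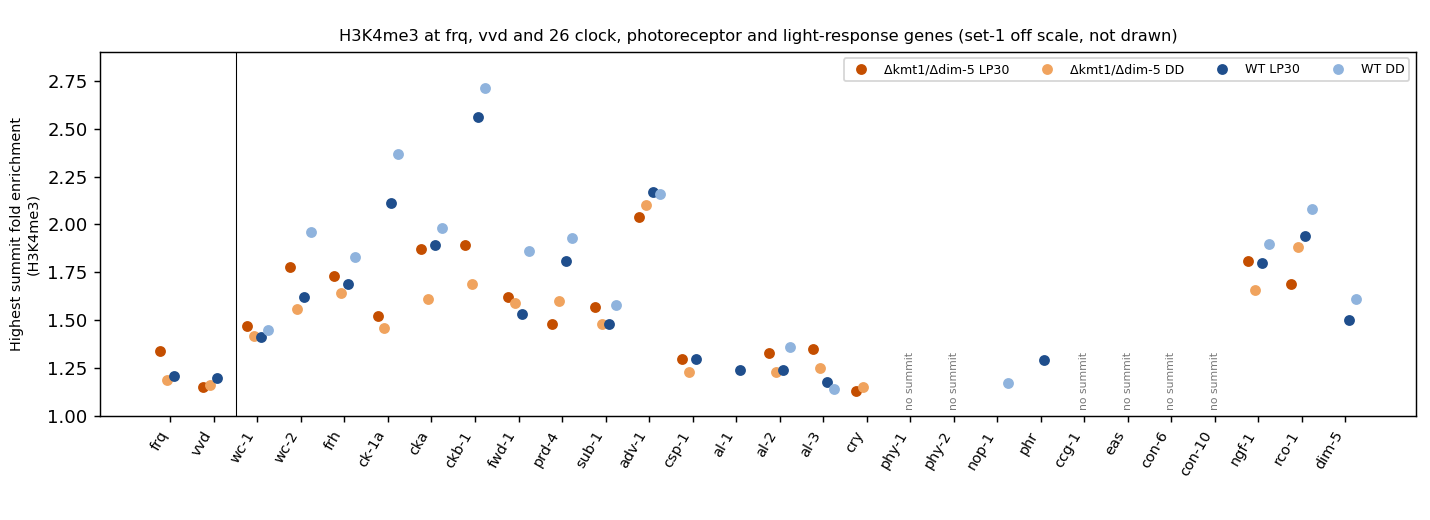
Highest H3K4me3 summit fold enrichment in frq, vvd (left of the line) and the listed clock, photoreceptor and light-response genes except set-1, 1 dot per list in the order Δkmt1/Δdim-5 LP30, Δkmt1/Δdim-5 DD, WT LP30, WT DD; a gene overlapped by a peak whose summit lies outside it has no dot, as phr in 3 lists. Only csp-1 has dots in the same 3 lists as frq and vvd, and the oscillator genes wc-1, wc-2 and frh lie above frq in the 3 lists where frq has a dot.

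For each of frq and vvd, 47 other genes, each other included, had an H3K4me3 summit inside the gene in exactly the same 3 lists, a count by summits and not by the overlap used above. By the largest difference in log2 fold over those 3 lists, each fold divided by its list median, the nearest to frq was NCU08851 (1.30 in LP30 and 1.2 in DD of Δkmt1/Δdim-5, 1.21 in WT LP30, largest difference 0.039), followed by NCU05148, NCU03773, NCU02615 and NCU01801 (up to 0.095). The nearest to vvd was NCU01182 (1.18 in LP30 and 1.19 in DD of Δkmt1/Δdim-5, 1.19 in WT LP30, largest difference 0.0349), followed by NCU06651, NCU05260, NCU01660 and NCU16699 (up to 0.0884). The annotation names none of these genes, and 3 values are too few to rank them apart.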

How the data were processed

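ChIP-seq of H3K9me3 and H3K4me3 was done on 20 samples, 2 biological replicates of 10 conditions. The authors mapped reads to NC12 with BWA and called peaks with MACS2 at a p under 0.1, as broad peaks for H3K9me3 and narrow peaks for H3K4me3, on the pooled replicates. The deposited lists give for each peak a score (10 times the −log10 q in the broad, 10 times the −log10 p in the narrow lists), the fold enrichment as a ratio over the control, the −log10 p-value and the −log10 q-value. Read totals are not in the lists, so depth per sample is unknown, and precision was judged from pileups. Each narrow peak gives a ChIP pileup k and control pileup λ from fold = (k + 1)/(λ + 1) and the Poisson p, and 95.4% to 96.6% of the solved ChIP pileups were whole within 0.02.

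A peak counted for a gene or flank with 1 bp of overlap. Genes came from an NC12 annotation without strand. Genes named are frq, vvd, all genes within 20 kb of them, 27 clock and light-response genes, and the 5 nearest in pattern to each member. The members and lists were chosen with earlier results of these data known. Alternatives were a q under 0.01, 150 bp of overlap, 10 kb flanks, 1 kb added to the body, summits within 250 bp, other centrings and pileups in place of folds. Python 3.11.15, numpy 2.4.6, scipy 1.17.1 and pandas 2.3.3 were used, and the methods were tested on simulated data. No sequence is printed.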

Additional observations from a re-analysis of the deposited data

How the results depend on the processing

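With peaks of a q under 0.01 alone, no H3K9me3 peak remained around either gene (0 in place of 1 at frq and 5 at vvd), the H3K4me3 peaks over frq numbered 1 in Δkmt1/Δdim-5 LP30 and 1 in Δkmt1/Δdim-5 DD, and those over vvd 0 in both; the WT LP30 peaks over frq and vvd stayed. In that setting, genes with an H3K9me3 peak over the body in 1 list of a pair numbered 13 in WT LP30 and not WT DD, 50 in WT DD and not WT LP30, 44 in Δkmt2/Δset-1 LP30 and not DD, and 50 in Δkmt2/Δset-1 DD and not LP30. Between strains they numbered 92 in Δkmt2/Δset-1 DD and not WT DD (43 the other way) and 110.0 in Δkmt2/Δset-1 LP30 and not WT LP30 (30 the other way). The body with 1 kb on either side held 1 H3K9me3 peak at vvd in Δkmt2/Δset-1 DD and 1 at frq in WT LP30, and 2 H3K4me3 peaks at frq in WT LP30 and 1 in WT DD, the added one belonging to NCU02264. Flanks of 10 kb held 4 H3K4me3 peaks at frq in every list and 3 (both Δkmt1/Δdim-5 lists) or 4 (both WT lists) at vvd. Of the 27 listed genes, H3K9me3 of a q under 0.01 overlapped 1 in each of Δkmt2/Δset-1 LP30, Δkmt2/Δset-1 DD and WT DD, and 150 bp of overlap left 1, 1, 2 and 1 in Δkmt2/Δset-1 LP30, Δkmt2/Δset-1 DD, WT LP30 and WT DD. The other 122 alternative values stayed within 1.5 times the first value or within the interval. Among these, the centred H3K4me3 ratio of vvd between Δkmt1/Δdim-5 LP30 and DD was 1.01 when centred on the other peaks within 20 kb, in place of 0.972, neither past 1.2 in either direction. No paired analysis was possible because each list pools its replicates, which for the same reason could not be left out in turn.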
